A study of Mus musculus with 29 samples.

Results

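Transcription factors of stratified squamous epithelium and of intestinal epithelium were compared mouse by mouse in the colon of a relapsing colitis model. The squamous factors were Trp63, Pax9, Sox15, Ovol1, Grhl3 and Bnc1, and the intestinal factors were Cdx1, Cdx2 and Hnf4a. A gene was taken through the probe set, a group of short DNA probes on the array, whose single annotated symbol is that gene. Each of the 9 factors had exactly 1 such probe set, out of 19938 genes with a probe set of 1 symbol. All mice were female C57BL6J mice, given as 6 weeks of age in every label. The paper gives that age for the start of the study and describes the mice as age-matched, and older, at sacrifice. From each mouse 1 array was made, from a frozen piece of the most infiltrated part of the distal colon. Dextran sodium sulphate (DSS), a polymer that injures the colonic epithelium, was given in the drinking water. Acute colitis mice had 7 days of DSS and no recovery (n = 4, B2, B3, B4 and C3). The 1-cycle mice had 7 days of DSS and then 2 weeks of normal water (n = 5, J and K labels). This cycle was given 2 times in 2-cycles mice (n = 5, D and E labels) and 3 times in 3-cycles mice (n = 5, F and G labels). Mice of the additional recovery group, called recovery mice here, had 2 cycles and then 3 more weeks of normal water (n = 5, M and N labels). Control mice drank normal water throughout (n = 5, A and L labels). A further acute array was not analysed here.

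The colon is lined by a single layer of columnar cells, whereas the skin, the oesophagus and the anal canal carry many layers of squamous cells. Trp63 encodes p63, which maintains the basal cells of stratified epithelia. Pax9 acts in the oesophagus, Sox15 is a relative of Sox2, and Bnc1 encodes basonuclin, a zinc finger protein of basal keratinocytes. Ovol1 and Grhl3 act later, when epidermal cells leave the cell cycle and build a barrier. Cdx1 and Cdx2 are homeobox factors that set intestinal identity, and loss of Cdx2 from the developing mouse gut gives tissue of oesophageal type. Hnf4a is a nuclear receptor that drives many genes of absorptive cells.

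The stretch around a gene's start site was taken from RefSeq (build GRCm38.p6, 250 bases before to 50 after the start) for the squamous factor of largest change and for the intestinal factor of widest spread between mice. They are shown as 1 example of each kind of factor and do not stand for the other factors. Capitals mark GGGCGG, the letters of an SP1-type GC box, or CACCTG, an E-box, on either strand, so that CCGCCC is a GC box on the other strand.
Grhl3, chr4:135573583-135573882, minus strand: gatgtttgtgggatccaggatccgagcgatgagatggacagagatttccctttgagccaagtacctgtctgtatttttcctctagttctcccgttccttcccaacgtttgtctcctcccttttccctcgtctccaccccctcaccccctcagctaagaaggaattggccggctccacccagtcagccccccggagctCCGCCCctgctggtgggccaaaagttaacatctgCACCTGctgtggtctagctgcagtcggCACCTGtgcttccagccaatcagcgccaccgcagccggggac
Cdx2, chr5:147307200-147307499, minus strand: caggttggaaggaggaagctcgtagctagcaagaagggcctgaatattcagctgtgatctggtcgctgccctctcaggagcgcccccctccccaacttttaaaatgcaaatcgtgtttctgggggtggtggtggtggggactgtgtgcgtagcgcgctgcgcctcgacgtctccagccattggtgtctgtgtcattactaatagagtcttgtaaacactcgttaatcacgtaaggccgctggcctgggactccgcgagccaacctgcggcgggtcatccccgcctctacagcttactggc
The Grhl3 stretch held 1 GC box and 2 E-boxes, and the Cdx2 stretch held neither. The other factors in the table did not divide this way. Of the intestinal Hnf4a, 1 stretch held 1 GC box and another held 1 E-box. Among squamous factors, Bnc1 held 6 GC boxes and no E-box, and Sox15 (2 E-boxes) and Pax9 (1 E-box) held no GC box. Of 32851 such stretches of the table, 35.7% held the GC box and 20.2% the E-box. The Grhl3 stretch was 58.3% G and C with 12 CG pairs, and the Cdx2 stretch was 57.3% G and C with 18 CG pairs, against medians of 52.7% and 7 over the table. The letters TTTATNG (Cdx), AACNGGTT (Grhl) and CCGTTA (Ovol), searched on both strands, were in neither stretch, and in 10.9%, 2.09% and 2.76% of all stretches. Stretches of 6 of the 9 factors were read. Trp63 and Ovol1 had no entry, and Cdx1 was left out with its chromosome. A match or its absence describes these letters only.

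The deposited values are log2 expression values, on which a difference of 1 is a 2-fold change. They were fitted with limma over all 35511 probe sets and 6 groups. A factor was called when its Benjamini-Hochberg adjusted p was under 0.05 and its change exceeded 2-fold, and it passed when the adjusted p alone was under 0.05. A probe set without a gene symbol split the arrays into 14 with values up to 8.14 and 15 with values from 11.1. The cut was fixed at 14 arrays, and among probe sets without a symbol the one of widest gap there was taken. Whether these sets are a processing batch is unknown. The low set held all control mice, all 1-cycle mice, B2, B3, D4 and D5, and the high set held all recovery mice, all 3-cycles mice, B4, C3, E2, E3 and E4. Recovery and 3-cycles mice were thus compared with control mice wholly across these sets. The mean of 7 markers of simple epithelium, led by Epcam and Krt8, lay between 11.1 and 11.4 in all mice, and that of 6 small intestine markers between 4.91 and 5.44. Probe sets differ in brightness for reasons other than RNA amount, so levels are compared between mice and never between genes. Trp63, Pax9, Sox15 and Bnc1 lay below the middle of all probe sets, whose median level was 6.07, and a change of such a dim probe set may be understated. In whole tissue, fewer cells of a type and less RNA per cell cannot be told apart.

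After additional recovery, Grhl3 and Trp63 were higher than in control mice, in 4 of the 5 recovery mice, while Cdx1, Cdx2 and Hnf4a did not pass the test. Of the 6 squamous factors, 1 (Grhl3) was called higher and 2 (Grhl3 and Trp63) passed, and 0 of the 3 intestinal factors were called or passed as lower. Over all probe sets, 1.08% were called higher and 0.563% lower in recovery mice, and 6.05% passed as higher and 6.61% as lower.

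Grhl3 had log2 values of 8.39, 8.18, 5.91, 6.92 and 7.83 in recovery mice M1, M3, M5, N2 and N3, against 6.03, 6.04, 6.17, 6.15 and 6.19 in control mice A1, A2, A5, L1 and L2. M1, M3, N2 and N3 lay above every control mouse, and M5 lay below every one. The difference was 1.33 on the log2 scale (SE 0.31, adjusted p = 0.0062), a 2.52-fold change. Trp63 had log2 values of 7.14, 7.02, 5.40, 6.30 and 6.80 in recovery mice M1, M3, M5, N2 and N3, against 5.50, 5.62, 5.43, 5.77 and 5.66 in control mice A1, A2, A5, L1 and L2. The same 4 mice lay above the control range and M5 just below it. The difference was 0.93 on the log2 scale (SE 0.23, adjusted p = 0.0082), a 1.91-fold change that missed the 2-fold threshold. Without M5 it was 1.22 (adjusted p = 8.03e-05), and Trp63 was then called too. M5 is the recovery mouse without the rise, so leaving it out raises the difference. Without M1 the Trp63 difference was 0.78 (adjusted p = 0.0368), and without M3 it was 0.81 (adjusted p = 0.0305).

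The other squamous factors differed less. Sox15 had log2 values of 6.29, 6.26, 5.62, 5.63 and 6.30 in recovery mice M1, M3, M5, N2 and N3, against 5.44 to 5.69 in control mice. Only M1, M3 and N3 lay above the control range, and the difference of 0.46 missed the threshold (SE 0.16, adjusted p = 0.054). Without M5 the Sox15 difference was 0.56, and it passed (adjusted p = 0.0212), as it did without N2 (adjusted p = 0.0288), without B4 (adjusted p = 0.0256), K2 or G3 of other groups, with array weights (adjusted p = 0.0171), with the letter of the label as a random block (letter block), among probe sets of 1 symbol, and with quantile normalization or centring. Sox15 did not pass without M1 (adjusted p = 0.152), M3 (adjusted p = 0.133) or N3 (adjusted p = 0.128). Bnc1 lay between 5.25 and 5.59 in recovery mice and between 4.95 and 5.21 in control mice, without overlap. Groups that did not overlap, with recovery mice higher, were found for 6.44% of all probe sets, and the Bnc1 difference of 0.28 did not pass (SE 0.10, adjusted p = 0.061). Without M5 it was 0.31 and passed (adjusted p = 0.0474), as it did without G3 (adjusted p = 0.0333), with only recovery and control mice fitted (adjusted p = 0.0384), with array weights, with the letter block, among probe sets of 1 symbol and with quantile normalization. Bnc1 did not pass without M1 (adjusted p = 0.177) or M3 (adjusted p = 0.109). Pax9 lay between 5.41 and 5.79 in recovery mice and between 5.17 and 5.42 in control mice. The Pax9 difference of 0.29 did not pass (SE 0.11, adjusted p = 0.093). It passed with only these 2 groups fitted (adjusted p = 0.0444) and without B4 (adjusted p = 0.0387). Ovol1 went with none of them: its log2 values were 6.76, 7.09, 7.21, 7.31 and 7.28 in recovery mice M1, M3, M5, N2 and N3, against 7.06 to 7.37 in control mice. The mouse of highest Trp63 and Grhl3, M1, had the lowest Ovol1 of its group. The Ovol1 difference was -0.041 (adjusted p = 0.896), with a 95% interval from -0.35 to 0.27.

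Of the intestinal factors, Cdx2 spread most between mice. Cdx2 had log2 values of 8.80, 8.68, 9.75, 9.40 and 9.58 in recovery mice M1, M3, M5, N2 and N3, against 8.03, 9.50, 8.79, 9.25 and 9.11 in control mice A1, A2, A5, L1 and L2. M1 and M3 lay at the low end of the recovery mice, but N3, with high Grhl3 and Trp63, lay above every control mouse. The Cdx2 difference was 0.31 (adjusted p = 0.579), with a 95% interval from -0.34 to 0.95. Cdx1 had log2 values of 8.76, 8.98, 8.81, 8.70 and 8.78 in recovery mice M1, M3, M5, N2 and N3, against 8.83 to 9.05 in control mice. It was below the control range in 4 of 5 recovery mice, M5 among them, and the difference of -0.14 did not pass (adjusted p = 0.315, 95% interval -0.33 to 0.04). Hnf4a had log2 values of 11.28, 11.59, 11.58, 11.56 and 11.63 in recovery mice M1, M3, M5, N2 and N3, against 11.79, 11.69, 11.69, 11.46 and 11.65 in control mice A1, A2, A5, L1 and L2. M1 stood alone below the control range, and the difference of -0.13 did not pass (adjusted p = 0.256, 95% interval -0.28 to 0.02). These intervals exclude a 2-fold loss of each intestinal factor on average, but they do not show that the levels were equal.

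**Figure D1:**
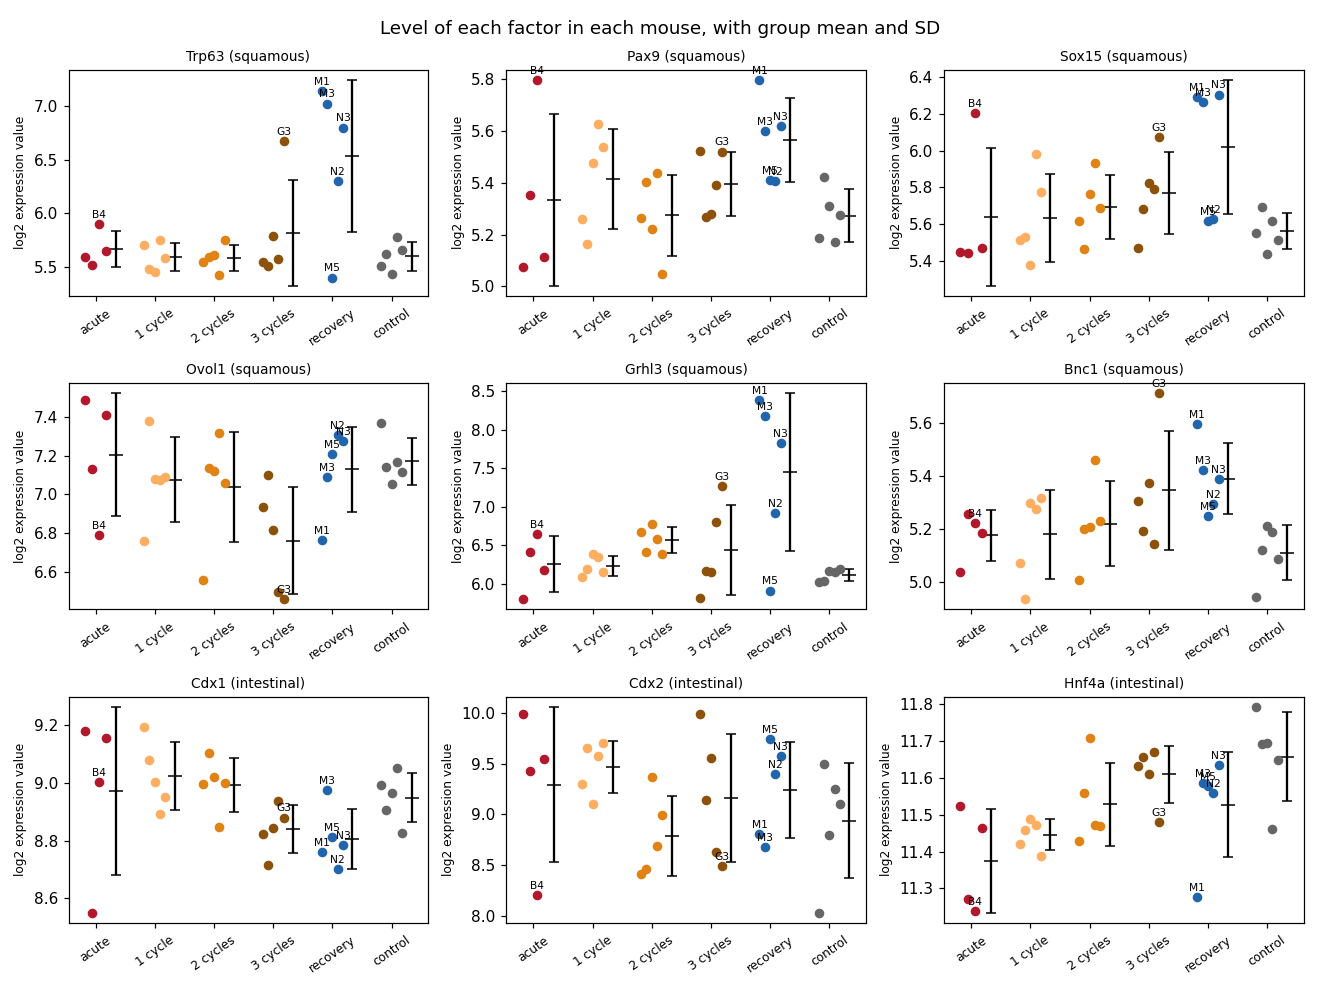
Log2 expression value of each factor (vertical axis, own scale per panel) in each mouse, by group from acute colitis at the left to control at the right. Points are mice, the dash and bar beside them are the group mean and SD (n = 4 for acute, 5 otherwise), and recovery mice, G3 and B4 are named. Trp63 and Grhl3 are high in M1, M3, N2, N3 and G3 and not in M5, while Cdx2 spans 8.03 to 9.50 among control mice alone.

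**Figure D2:**
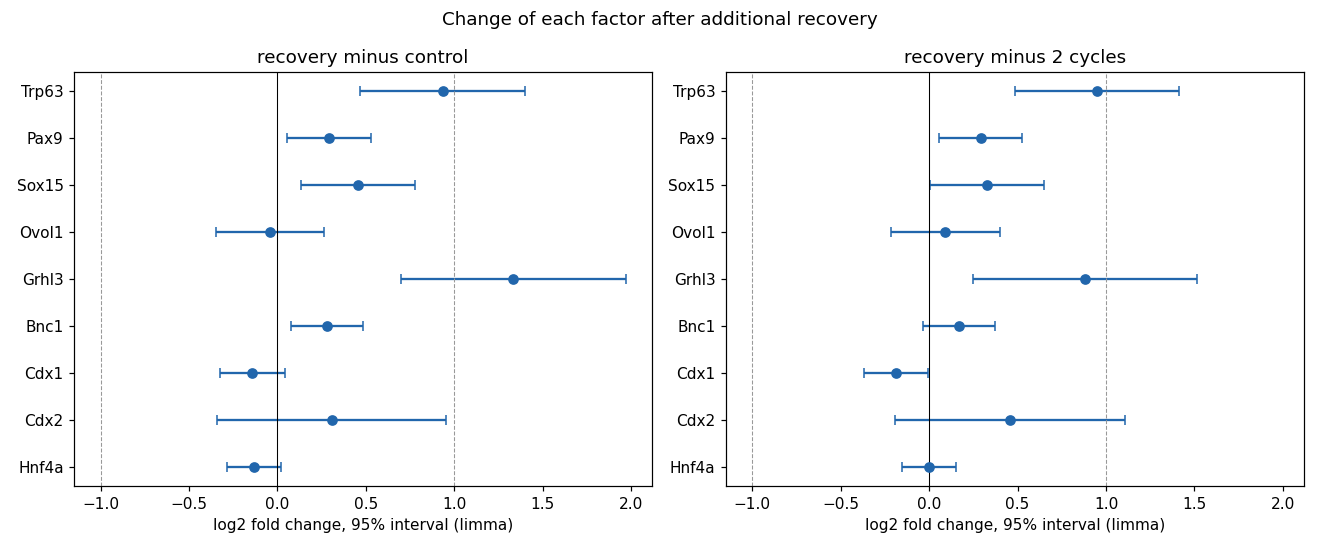
Log2 fold change of each factor with its 95% interval from limma, for recovery minus control at the left and recovery minus 2 cycles at the right (horizontal axis, log2; dashed lines mark 2-fold). In the comparison with controls Grhl3 lies at 1.33 and Trp63 at 0.93, and the intervals of Ovol1, Cdx1, Cdx2 and Hnf4a include 0.

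The split of the arrays ran alongside the comparison with controls. With the set of arrays as a covariate, which is then estimated from the acute and 2-cycles mice, the difference between recovery and control mice was 1.17 for Grhl3 (SE 0.46, adjusted p = 0.301) and 0.82 for Trp63 (SE 0.34, adjusted p = 0.329), so the call of Grhl3 was lost. The sizes kept most of their value, and the errors were larger. Sox15 kept 0.14 and Bnc1 0.15. M5 lay in the same set as the other 4 recovery mice and had Trp63 and Grhl3 just below those of the control mice. The mean of 4 leukocyte markers, led by Ptprc, lay between 7.76 and 8.46 in recovery mice, M5 among them, and between 6.68 and 7.23 in control mice, and its part in these differences was not tested.

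Recovery mice were next compared with 2-cycles mice, which had the same DSS and 3 weeks less of normal water after it. As the paper describes the mice as age-matched at sacrifice, 2-cycles mice also began DSS at a later age. Trp63 had log2 values of 5.55, 5.59, 5.61, 5.42 and 5.75 in 2-cycles mice D4, D5, E2, E3 and E4, all below recovery mice M1, M3, N2 and N3. The difference of recovery minus 2-cycles mice was 0.95 (SE 0.23, adjusted p = 0.0777). Grhl3 had log2 values of 6.67, 6.41, 6.78, 6.58 and 6.39 in 2-cycles mice D4, D5, E2, E3 and E4, also below the same 4 recovery mice, and the difference was 0.88 (SE 0.31, adjusted p = 0.366). So 0 of the 6 squamous factors were called or passed, against 0.152% of probe sets called and 0.259% passed as higher. Without M5 Trp63 differed by 1.23 (adjusted p = 0.000165) and Grhl3 by 1.26 (adjusted p = 0.0066), and both were called. Trp63 did not pass without M1 (0.80, adjusted p = 0.284) or without M3 (0.83, adjusted p = 0.209). With M5 kept, Trp63 passed without reaching 2-fold with the letter block (adjusted p = 0.0311), with array weights (adjusted p = 0.0461), among probe sets of 1 symbol (adjusted p = 0.0372) and without the 3-cycles mouse G3 (adjusted p = 0.026). Within the high set of arrays, where the 2-cycles mice were E2, E3 and E4, the differences were 0.94 for Trp63 (adjusted p = 0.734) and 0.86 for Grhl3 (adjusted p = 0.845). Of the intestinal factors 0 of 3 passed, against 0.00845% of probe sets called and 0.0197% passed as lower. Cdx1 differed by -0.19 (adjusted p = 0.56) and lay below every 2-cycles mouse in 4 of 5 recovery mice. Cdx2 differed by 0.46 (adjusted p = 0.727), and Hnf4a differed by -0.0016 (adjusted p = 0.998).

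In the fit of all groups no factor passed in the cycle groups, but 1 mouse after 3 cycles stood with the recovery mice. Trp63 was 6.67 in G3, against 5.51 to 5.78 in F1, F3, F5 and G2. Grhl3 was 7.27 in G3 and 6.80 in G2, against 5.81 to 6.17 in the F mice. G3 also had the highest Bnc1 of all mice, 5.71, and the lowest Ovol1 of all mice, 6.46. Its Cdx2, 8.49, was the lowest of its group, as was its Hnf4a, 11.48, yet its Cdx1 of 8.88 lay within the control range. The mean of 6 absorptive cell markers was 9.84 in G3 and 10.4 to 10.9 in the other 3-cycles mice. That of the leukocyte markers was 8.68 in G3 and 7.80 to 8.51 in the others. The part of these cells in G3 was not tested. As a group, 3-cycles mice differed from control mice by 0.22 in Trp63 (adjusted p = 0.535) and by 0.33 in Grhl3 (adjusted p = 0.494). Ovol1 had log2 values of 6.93, 7.10, 6.82, 6.50 and 6.46 in 3-cycles mice F1, F3, F5, G2 and G3, against 7.37, 7.14, 7.06, 7.17 and 7.12 in control mice A1, A2, A5, L1 and L2. It was below every control mouse in 4 of 5 mice, and the difference of -0.41 lay just outside the threshold (SE 0.15, adjusted p = 0.0557). It passed when only the 3-cycles and control mice were fitted (adjusted p = 0.0407), and not with the set of arrays as a covariate (-0.49, adjusted p = 0.336). Over all probe sets, 1.02% were called higher and 0.597% lower after 3 cycles, and 8.81% passed as higher and 9.26% as lower.

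After 1 cycle, Trp63 differed from controls by -0.0060 (adjusted p = 0.995), Grhl3 by 0.12 (adjusted p = 0.906) and Cdx2 by 0.53 (adjusted p = 0.388). Hnf4a, the lowest in p, had values of 11.39 to 11.49 in 1-cycle mice and 11.46 to 11.79 in control mice, a difference of -0.21 (adjusted p = 0.0847). It passed without the control mouse L1 (-0.26, adjusted p = 0.0365), with array weights (adjusted p = 0.0214), with the letter block (adjusted p = 0.0469) and with dim probe sets left out (adjusted p = 0.0492). Over all probe sets, 0.87% were called higher and 0.186% lower after 1 cycle, and 3.4% passed as higher and 3.54% as lower. After 2 cycles, Grhl3 lay above every control mouse in all 5 mice, a state found for 4.7% of probe sets, with a difference of 0.45 that did not pass (SE 0.31, adjusted p = 0.47). It passed when only the 2-cycles and control mice were fitted (SE 0.085, adjusted p = 0.0081). The fit of all groups takes 1 spread per probe set over all of them. The SD of Grhl3 was 0.17 in 2-cycles and 0.077 in control mice, against 1.03 in recovery and 0.59 in 3-cycles mice. Trp63 differed by -0.015 (adjusted p = 0.984) after 2 cycles in the fit of all groups. Over all probe sets, 0.907% were called higher and 0.124% lower after 2 cycles, and 3.08% passed as higher and 2.51% as lower.

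In acute colitis Hnf4a was the 1 factor of the 9 that passed. Hnf4a had log2 values of 11.52, 11.27, 11.24 and 11.46 in acute mice B2, B3, B4 and C3, against 11.79, 11.69, 11.69, 11.46 and 11.65 in control mice A1, A2, A5, L1 and L2. B3 and B4 lay below the control range, and C3 met its lower end. The difference was -0.28 (SE 0.08, adjusted p = 0.0085), a 1.22-fold lower level. It did not pass when only the acute and control mice were fitted (adjusted p = 0.0735) or within the low set of arrays (-0.26, adjusted p = 0.108). Over all probe sets, 1.38% were called higher and 1.4% lower in acute mice, and 11.4% passed as higher and 11.6% as lower. The mean of 6 smooth muscle markers, led by Myh11, lay between 9.42 and 10.5 in acute mice and between 11.3 and 11.7 in control mice, and that of 6 absorptive cell markers between 9.46 and 10.5 in acute mice and between 10.98 and 11.6 in control mice. The mean of the leukocyte markers lay between 7.42 and 9.33 in acute mice and between 6.68 and 7.23 in control mice, and 4 of 4 passed as higher. Of 5 goblet cell markers 2 passed as lower, Clca1 (-1.67) and Zg16 (-0.42). The part of these cells in the differences of Hnf4a and of the other intestinal factors was not tested. Of 17 other intestinal factors measured, 8 passed as lower and 2 as higher in acute mice, with a median difference of -0.27, against a median of 0.037 over all probe sets. The lower ones included Foxa2 (-0.88), Hes1, of Notch signalling (-0.82), and the crypt factor Sox9 (-0.78), and the higher ones were Gata4 (0.37) and Creb3l3 (0.36). Cdx2 lay between 8.20 and 10.0 in acute mice, wider than the 8.03 to 9.50 of control mice, and differed by 0.36 (adjusted p = 0.488). In the acute mouse B4, Sox15 was 6.20 and Pax9 5.80, against 5.44 to 5.47 for Sox15 and 5.08 to 5.35 for Pax9 in B2, B3 and C3. B4 had the lowest Cdx2 (8.20) and Hnf4a (11.24) of its group. It also had the lowest means of absorptive (9.46) and goblet cell markers (11.27) of all mice, while its simple epithelium mean was 11.3. The part of these cells in B4 was not tested.

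Each factor was also set against its mean in control mice, and these differences were averaged over the 6 squamous and over the 3 intestinal factors in each mouse, as a description without a test. The squamous average was 0.86 in M1, 0.79 in M3, 0.73 in N3, 0.34 in N2 and -0.0053 in M5. It was 0.48 in G3 and 0.29 in B4, and between -0.07 and 0.22 in the other 22 mice, the controls included. By group it averaged 0.54 ± 0.37 in recovery mice and 0.12 ± 0.21 in 3-cycles mice (SD, n = 5 each), with control mice between -0.04 and 0.04. The intestinal average was -0.23 in M1, -0.10 in M3, 0.15 in N3, 0.04 in N2 and 0.20 in M5, against -0.24 to 0.19 in control mice. It was -0.23 in G3 and -0.37 in B4, and only B4 lay below the control range. The low end of that range was A1 alone, and the other control mice lay between -0.030 and 0.19. M1, M3 and G3 lay below these other control mice, and so did B3, D4, D5, E3 and G2, while N2, N3 and M5 did not. The largest part of the low average came from Cdx2 in G3 and B4 and from Hnf4a in M1. In N3 and N2 the intestinal averages above 0 came from Cdx2, which was 0.64 and 0.47 above its control mean, while Cdx1 and Hnf4a lay below theirs. The median of the 3 intestinal differences lay between -0.19 and -0.023 in recovery mice and at -0.18 in G3, against -0.0093 to 0.10 in control mice. M5, without a squamous rise, had -0.080. It ran from -0.42 to 0.23 in acute mice, -0.055 to 0.25 in 1-cycle mice and -0.23 to 0.072 in 2-cycles mice. In 3-cycles mice it ran from -0.18 to -0.0019. Medians below the control range were thus not particular to mice with high squamous factors.

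**Figure D3:**
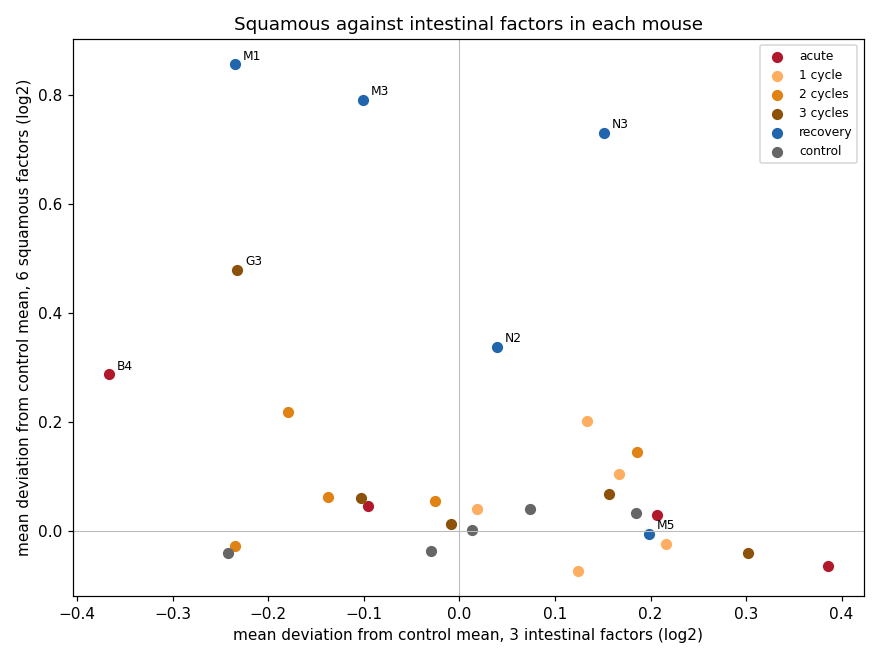
Each point is a mouse, coloured by group. The horizontal axis is the mean deviation of Cdx1, Cdx2 and Hnf4a from their control means and the vertical axis that of the 6 squamous factors, both in log2 units. M1, M3 and N3 lie highest at 0.86, 0.79 and 0.73, on both sides of 0 on the intestinal axis.

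The mean level of 5 keratins of stratified squamous epithelium (Krt5, Krt14, Krt4, Krt13 and Krt6a) followed the same mice. It was 11.4, 11.02, 5.24, 9.08 and 11.1 in recovery mice M1, M3, M5, N2 and N3, against 5.35 to 5.50 in control mice. It was 8.73 in G3 and 5.85 in B4. All 5 keratins were called higher in recovery mice. In the 5 mice with keratin means of 8.73 or more, Trp63 was 6.30 to 7.14, against at most 5.90 in all other mice. Grhl3 was 6.92 (N2) to 8.39 (M1) in those 5 mice. The highest of the others were close to N2, with 6.80 in G2, 6.78 in E2 and 6.67 in D4. Markers of skeletal muscle, 9 genes led by Ckm, lay between 5.63 and 5.92 in all mice. Of 6 sebaceous and hair follicle markers only Krt84, a hair keratin, passed as higher in recovery mice. Their mean was 5.58, 5.53, 5.20, 5.31 and 5.53 in M1, M3, M5, N2 and N3, against 5.17 to 5.27 in control mice. It was 5.58 in G3, and also 5.62 in B4 and 5.54 in D4. How far the share of squamous tissue in each piece sets the levels of the factors was not tested.

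**Figure D4:**
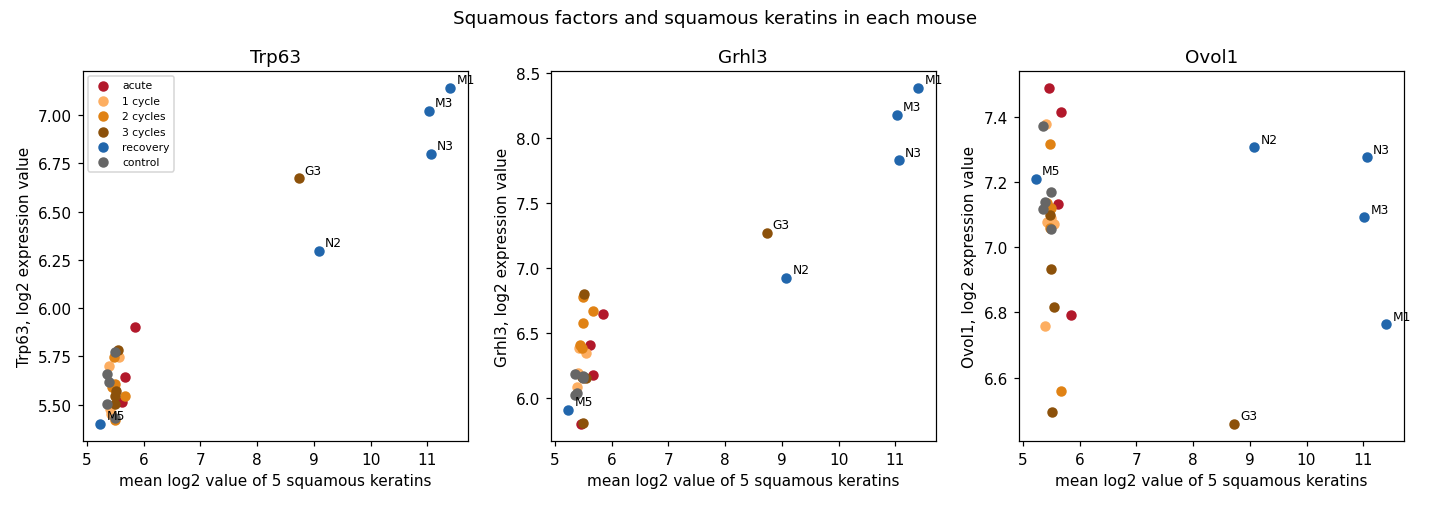
Log2 expression value of Trp63, Grhl3 and Ovol1 (vertical axes) against the mean log2 value of 5 squamous keratins (horizontal axis) in each mouse. Trp63 and Grhl3 are highest in the 5 mice with keratin means of 8.73 to 11.4, and Ovol1 spans 6.46 to 7.31 in those mice.

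Genes tied to these factors or to their tissues were read from lists. The lists were chosen with earlier results of these data known, so their counts are a description and no separate support. Of 18 measured genes of the basal layer or bound by p63, 13 passed as higher in recovery than in control mice, 5 of them called, and 0 as lower, with a median difference of 0.52. Krt5, the basal keratin, averaged 10.3 ± 2.79 in recovery mice and 5.70 ± 0.16 in control mice (SD, n = 5 each), and its partner Krt14 averaged 9.87 ± 2.36 in recovery mice and 6.52 ± 0.16 in control mice. Of 20 genes of the upper layers, 15 passed as higher, 13 of them called, and 0 as lower, with a median of 1.65. Krt6a, Krt4 and Krt13, keratins of stressed or mucosal squamous cells, differed by 4.39, 4.31 and 4.05. The median over all probe sets was -0.0048. Of all probe sets, 6.05% passed as higher and 6.61% as lower, and 1.08% were called higher and 0.563% lower. The keratins named before are members of these 2 lists too. With the set of arrays as a covariate 2 basal genes (Sfn and Trim29) and 1 upper layer gene (Sprr1a) passed. Without M1 7 basal genes passed, and without M3 8 did. Of 20 intestinal genes bound by or needing Cdx or Hnf4a, 0 passed as higher and 2 as lower, with a median of -0.11. The 2 were Apob, of lipid export, at -0.998 (adjusted p = 0.0046) and Slc26a3, the chloride exchanger of the colon surface, at -0.82 (adjusted p = 0.0198), and neither passed with the set of arrays as a covariate. Without M1 or without A1, only Apob passed as lower. Krt20, a keratin of surface cells, passed as higher without M1, without B4, with only the 2 groups fitted, with array weights, with the letter block and with quantile normalization. Slc26a3 is also among the absorptive cell markers, whose mean lay between 10.1 and 10.7 in recovery mice and between 10.98 and 11.6 in control mice.

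Other factors of both tissues were read in the same way. Of 16 measured squamous factors that are not among the 6, 4 passed as higher in recovery than in control mice, with 0 called and 0 lower, and a median of 0.19. They were Sox2, a factor of the oesophagus, which averaged 6.08 ± 0.56 in recovery mice and 5.25 ± 0.19 in control mice (adjusted p = 0.0027), and Tfap2a, Gata3 and Grhl1, of epidermal differentiation, with differences of 0.81, 0.75 and 0.60. Against 2-cycles mice, Sox2 differed by 1.02 and was called (adjusted p = 0.0129), which neither Trp63 nor Grhl3 was. Tfap2a and Grhl1 also passed there, with differences of 0.78 and 0.50. Of the 16 factors 0 passed there without M1, M3, N3 or E4, with only these 2 groups fitted or within the high set of arrays, and the probe sets of all 4 that passed against control mice were too dim to be tested with dim probe sets left out. With the covariate, and without D4, D5, E2 or E3, 1 passed. Of 17 measured intestinal factors that are not among the 3, 6 passed as lower and 1 as higher in recovery than in control mice, with a median of -0.16. Foxa2, a forkhead factor of gut endoderm, averaged 7.15 ± 0.26 in recovery mice and 7.89 ± 0.12 in control mice (SD, n = 5 each; adjusted p = 0.0017). Nr5a2 differed by -0.65, the crypt stem cell factor Ascl2 by -0.62 and Hnf4g, the close relative of Hnf4a, by -0.51, and Creb3l3 was the one that was higher, by 0.42. With the set of arrays as a covariate 0 of the squamous and 0 of the intestinal factors of these lists passed, and without M1 3 intestinal ones (Foxa2, Ascl2 and Nr5a2) passed as lower. Without A1 4 did, Hnf4g and these 3. Against 2-cycles mice 0 of the 17 passed in either direction. Of all probe sets, 6.05% passed as higher and 6.61% as lower against control mice. Against 2-cycles mice these shares were 0.259% and 0.0197%.

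Genes whose levels ran most like each factor over the 29 arrays were found by Pearson's r, as a description. The arrays share groups, and a few mice with high squamous genes carry much of each r. For Trp63 they were Lypd3, Psca and Tmprss11g, each at r = 0.97. For Grhl3 they were Nectin4 (r = 0.96), Stra6 (r = 0.94) and the transglutaminase Tgm1 (r = 0.94). Bnc1 ran most like the basal keratin Krt15 (r = 0.79), Sox15 like Olfr1174, Fam83a and Aldh3a1 (r = 0.87 each), and Pax9 like Ndufa4l2 (r = 0.78). Ovol1 ran most like the intestinal factor Hnf4g (r = 0.74), and of its 3 closest genes the others were Chchd3 and Zfp820. Cdx2 ran most like Chn2 (r = 0.94), Pcsk5 (r = 0.91) and Apol10a (r = 0.90), Cdx1 like Smpd3 (r = 0.76), and Hnf4a like Hectd3 (r = 0.83).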

How the data were processed

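RNA from colon tissue of 29 mice was hybridized to Affymetrix Mouse Gene ST arrays. Per the labels and methods, the authors normalized the arrays by RMA (R 2.12.2) and deposited log2 expression values, 1 per probe set and array. RMA pulls low signals together, and no background level was given, so precision rests on the number of mice. The values lay between 1.93 and 13.97, with array medians of 6.02 to 6.14, and 0 columns were left out. Gene symbols came from the platform annotation (21789 probe sets with 1 symbol, 1621 with several, 12101 with none), and the Entrez identifiers of the 9 factors carry the same symbols in RefSeq.

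Groups came from the labels. One mean per group was fitted with limma 3.58.1 (R 4.3.3) on all 35511 probe sets without a filter, and p-values were adjusted by Benjamini-Hochberg within a comparison. Intervals use the moderated degrees of freedom, 26.15. The fit was tested on simulated data. The p-values measure the spread between single mice.

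The members and gene lists were chosen with earlier results of these data known. Named genes were the 9 factors, for each the 3 genes of highest r, and up to 4 of each list by size of change in recovery against control mice; Hnf4g, Creb3l3, Hes1, Sox9, Gata4, Sfn and Sprr1a in the lists, the genes of cell type lists, and mice named singly were chosen after their values were seen. Alternatives were fits of the compared groups only, array weights (0.320 to 1.84), the letter of the label as a random block (correlation -0.07), a trended and robust prior, 17755 brighter probe sets only, probe sets with 1 symbol only, quantile normalization, median centring, the mean of a gene's probe sets, the set of arrays as a covariate, fits within a set, no fold threshold, and each array left out in turn. Counts of the gene lists under these settings were added after seeing the data.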

Additional observations from a re-analysis of the deposited data

Results flagged for a closer look

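In groups of 4 or 5 mice, Dixon's test of the most extreme mouse was applied to the 9 factors in 6 groups, 54 groups of values in all, and 3 had a mouse far from the others. Chance gives about 1 in 20 such groups. Trp63 was 6.67 in G3, the highest of the 3-cycles mice. Sox15 was 6.20 in B4, the highest of the acute mice. Hnf4a was 11.28 in M1, the lowest of the recovery mice. The keratin means of these mice were 8.73 in G3, 5.85 in B4 and 11.4 in M1, and whether these account for the values was not tested.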

How the results depend on the processing

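With no fold threshold, 2 squamous factors were called higher in recovery against control mice, and 1 intestinal factor (Hnf4a) was called lower in acute mice. With the set of arrays as a covariate 0 squamous factors were called in recovery mice, and with each array left out in turn 1 to 2 were. Against 2-cycles mice, 0 to 2 were called with an array left out, the 2 only without M5. The counts of called factors were 0 in the other comparisons with control mice under every setting with the fold threshold. Of 54 fold changes, 36 kept their sign in every setting and 18 did not. In acute against control mice, array weights gave -0.043 for Pax9 and -0.00081 for Sox15. The covariate gave -0.080 for Sox15, -0.0033 for Ovol1 and -0.0017 for Bnc1. The low arrays alone gave -0.044 for Trp63, -0.060 for Pax9, -0.12 for Sox15, -0.010 for Grhl3 and -0.083 for Cdx1. After 1 cycle Trp63 was 0.0016 with weights, 0.0032 with quantile normalization and 0.0037 with centring. After 2 cycles weights gave 0.028 for Trp63 and -0.044 for Pax9, and Pax9 was -0.0023 with the letter block, -0.0019 with quantile normalization and -0.033 with the covariate. There Sox15 was -0.059 with the covariate and -0.020 in the low arrays, and Bnc1 was -0.0081 in the low arrays. After 3 cycles Sox15 was -0.11 with the covariate. In recovery against control mice Ovol1 was 0.023 with weights. In recovery against 2-cycles mice Ovol1 was -0.035 in the high arrays, and Hnf4a was 0.024 with weights and 0.027 with quantile normalization. With an array left out, the acute differences ran from -0.014 to 0.12 for Trp63, -0.093 to 0.15 for Pax9, -0.11 to 0.14 for Sox15, -0.058 to 0.17 for Ovol1 and -0.047 to 0.16 for Cdx1. They ran after 1 cycle from -0.047 to 0.038 for Trp63 and -0.014 to 0.14 for Sox15, after 2 cycles from -0.057 to 0.029 for Trp63 and -0.040 to 0.058 for Pax9, and after 3 cycles from -0.0022 to 0.39 for Cdx2. In recovery mice Ovol1 ran from -0.085 to 0.050 against control mice and from -0.028 to 0.18 against 2-cycles mice, where Hnf4a ran from -0.029 to 0.061. The cause was not tested. Trp63, Pax9, Sox15 and Bnc1 had no value with dim probe sets left out, and dim signal limits what these 4 can show. Grhl3 kept its call in recovery against control mice with any array left out, from 1.10 to 1.72. The adjusted p of Ovol1 after 3 cycles ranged from 0.0283 to 0.336 over the settings. No paired analysis was possible because each mouse belonged to 1 group and the labels share no replicate number between groups.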
